A study of Mus musculus with 2 samples.

Results

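Voltage-gated and potassium channel genes were followed through the cells of mouse medulloblastoma. Members were all genes listed in both deposited files whose symbol begins with Kcn, with Cacn, or with Scn, a digit and a or b. The rule took 96 of the 16550 genes in both files, and the 58 members with at least 50 UMIs (molecules counted by molecular barcode) over both libraries are described here. The other 38 fell under that minimum. Kcnn4 was just inside it with 57 UMIs, 44 at P12 and 13 at P24-30, and Kcna1 just outside with 49 UMIs, 16 and 33.

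The tumours came from hGFAPcre;Ptch c/c mice, in which Cre recombinase under a GFAP promoter removes Ptch, the receptor that restrains Sonic hedgehog signalling. One Drop-seq library was made of tumours at postnatal day 12 (P12) and another at postnatal days 24 to 30 (P24-30), so there is 1 library per age and no replicate. All cells analysed are of this genotype, none from another genotype enters a comparison, and how many animals went into each library is not stated. The GFAP promoter is active in early neural progenitors of many lineages, so recombination need not be limited to granule cell progenitors.

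Channels set the electrical behaviour of a cell. Potassium channels (Kcn) let potassium out and hold or restore the resting potential, sodium channels (Scn) carry the upstroke of the action potential, and calcium channels (Cacn) couple depolarisation to secretion and signalling. In the cerebellum, granule neurons add these channels as they leave the cell cycle, while glial cells buffer potassium through inward rectifiers. Most Cacng genes encode TARPs, partners of AMPA glutamate receptors rather than of calcium channels.

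The P12 file held 6000 barcodes and 12265399 UMIs, and the P24-30 file 4991 cells and 12284458 UMIs. After filtering, 5723 P12 cells with a median of 1805 UMIs and 4796 P24-30 cells with a median of 2193.5 remained. Classes at P12 were clusters built without any member gene and named from marker lists. They were cycling cells (2816 cells in 4 clusters), neuron-like cells (594), oligodendrocyte lineage-like cells (122) and microglia-like cells (77). Clusters of 1065, 413, 330 and 215 cells were left unnamed and enter no comparison. A cluster of 91 cells of low depth was also unnamed and is described below. The P24-30 cells carry 1 of 16 tags, G1 to G16, whose meaning is not explained. G1, G2, G3 and G16 scored as cycling (1883 cells), and G11, G12 and G13 as neuron-like (837 cells). The 20 neuron markers summed to 20023 CPM in P12 neuron-like and 3174.5 CPM in P12 cycling cells, and to 11602 and 3269 CPM in the P24-30 tags. The 11 granule progenitor markers summed to 3769 CPM in P12 neuron-like and 5903 CPM in P12 cycling cells. In the P24-30 tags they summed to 4644 and 4015 CPM, so they were not lower in the neuron-like tags there. Gabra6, a marker of mature granule neurons, had no UMI in the neuron-like tags. P24-30 cell names hold no barcode, so barcodes shared between libraries could not be counted. At P12, 10 barcodes shared their first 11 bases with another. Levels below are CPM, a gene's UMIs scaled to all UMIs of the class, and ratios are ratios of CPM. All intervals are exact 95% intervals that cover counting error only, with no spread between animals.

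Kcnj10 and Kcnj16 encode inward rectifier subunits that can assemble in 1 channel, and both stood far above cycling cells in glial classes at both ages. Their promoters are shown because both genes were high in each glial class. Windows run from 250 bases before to 50 after a RefSeq start, on GRCm38.p6. Kcnj10 lies on the plus strand of chromosome 1 (gene 172341210 to 172374085 in GENCODE vM21 on mm10) and its window is chr1:172340960-172341259. Kcnj16 lies on the plus strand of chromosome 11 (gene 110968033 to 111027968), and the most upstream of its 4 windows is chr11:110967783-110968082. Capitals mark the SOX core (ACAAAG, or CTTTGT where it lies on the minus strand) in Kcnj10. In Kcnj16 they mark the E-box CAGCTG, which reads the same on both strands. The Kcnj10 window held no E-box and no Kcnj16 window held a SOX core, so the genes shared neither motif. Of the Kcnj16 windows, 1 (printed here) and 3 held an E-box, and 2 and 4 held neither motif.
Kcnj10: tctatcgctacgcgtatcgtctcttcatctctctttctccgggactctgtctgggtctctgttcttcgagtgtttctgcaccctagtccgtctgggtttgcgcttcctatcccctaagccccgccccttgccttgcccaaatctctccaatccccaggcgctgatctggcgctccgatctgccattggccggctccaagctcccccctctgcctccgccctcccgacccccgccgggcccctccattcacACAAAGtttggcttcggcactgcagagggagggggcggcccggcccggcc
Kcnj16: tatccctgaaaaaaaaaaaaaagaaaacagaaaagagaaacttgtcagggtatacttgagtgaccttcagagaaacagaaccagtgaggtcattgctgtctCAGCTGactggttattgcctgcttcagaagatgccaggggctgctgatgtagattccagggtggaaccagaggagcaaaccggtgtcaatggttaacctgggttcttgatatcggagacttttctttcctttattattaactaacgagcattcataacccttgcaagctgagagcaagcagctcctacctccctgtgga
RefSeq windows matched 46 of the 58 described members. The SOX core was present in 18.7% of 32851 windows of this length and in 16 of the 72 member windows (22.2%). The E-box was present in 16.3% of all windows and also in 16 of the 72 (22.2%). A match describes the letters in the window and does not show a binding site.

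The highest levels of both genes were in glial cells. In P12 cells Kcnj10 stood at 4.33 CPM (29 UMIs, 2.90 to 6.22) in cycling, 1.06 CPM (1 UMI, 0.0268 to 5.91) in neuron-like and 414 CPM (89 UMIs, 332 to 509) in oligodendrocyte lineage-like cells. Kcnj16 had 5 UMIs in cycling cells (0.747 CPM), none in neuron-like cells and 30 in oligodendrocyte lineage-like cells (139.5 CPM, 94.1 to 199). The oligodendrocyte lineage-like level was 95.5 times that of cycling cells for Kcnj10 (62.2 to 151) and 187 times for Kcnj16 (71.7 to 616). These intervals do not overlap those of cycling cells. After each cell was thinned to 500 UMIs, 17 of 122 oligodendrocyte lineage-like cells (13.9%, 8.33 to 21.4) held a Kcnj10 UMI. The share was 5 of 2816 cycling cells (0.178%), and 0 of 77 microglia-like cells, for which the exact binomial upper limit is 4.68%. Without thinning the Kcnj10 shares were 32.8%, 0.817% and 2.60%, at median depths of 1504.5, 2089 and 2091 UMIs.

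The 13 astrocyte or Bergmann glia markers summed to 7434 CPM in this class, against 342 CPM in cycling cells. Clustered without the cell filter, which moves astrocyte-like cells to a cluster of their own, 115 oligodendrocyte lineage-like cells held Kcnj10 at 221 CPM (47 UMIs, 162 to 294), 55.5 times the cycling level.

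A cluster of astrocyte or Bergmann glia-like cells was separate at P12 only when cells were not filtered, and most of its cells exceeded the limit of 20% mitochondrial UMIs. The unfiltered cluster held 108 cells at P12, 82 of them over the limit, and 69 at P24-30, 42 of them over the limit. With the filter on, the P12 cluster with the most astrocyte markers raised (10 of 13) was the oligodendrocyte lineage-like cluster itself. In the unfiltered cluster Kcnj10 reached 776 CPM at P12 (157 UMIs, 660 to 908) and 595 CPM at P24-30 (123 UMIs, 494 to 710). That was 195 times (133 to 295) and 132 times (86.6 to 209) the level of unfiltered cycling cells. Kcnj16 was 151 times higher at P12 (54.5 to 517) and 52.8 times higher at P24-30 (24.1 to 122). In 18 P24-30 cells of this kind that passed the filter, Kcnj10 stood at 723 CPM (65 UMIs, 558 to 922). Pcp2, a Purkinje cell marker, was among the leading genes of these clusters, and the 4 Purkinje markers summed to 949 CPM at P12 and 2505 CPM at P24-30, against 6.87 and 10.7 CPM in filtered cycling cells. The part of Purkinje RNA in these values was not tested.

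**Figure D1:**
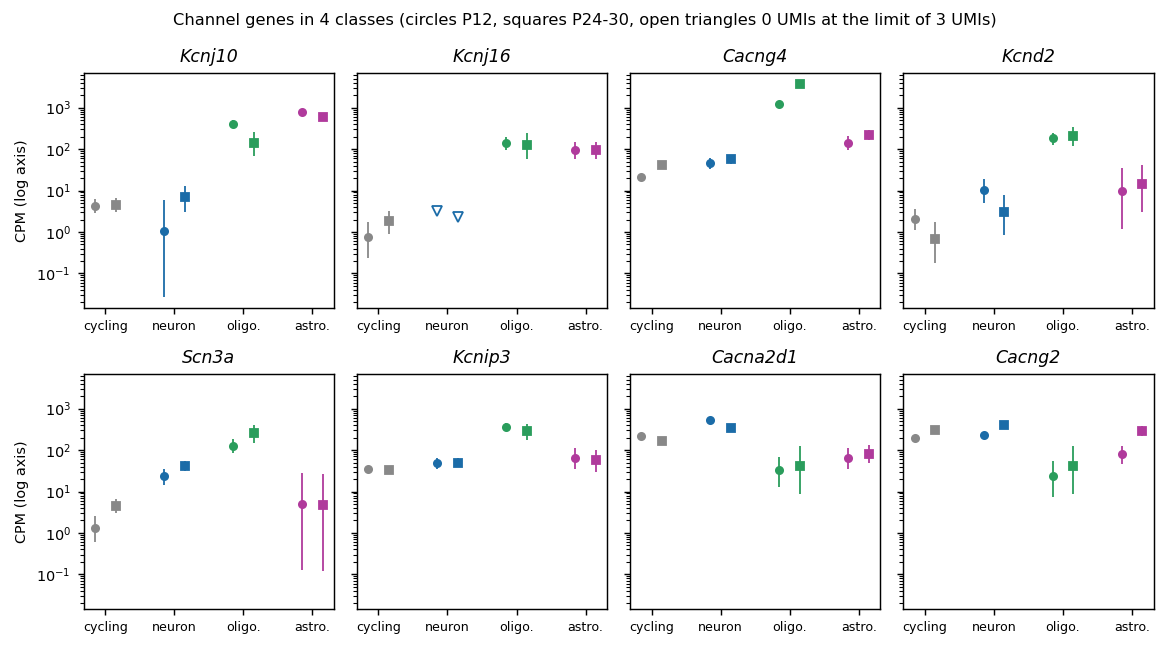
Level of 8 channel genes (CPM, log axis) in cycling, neuron-like, oligodendrocyte lineage-like and astrocyte or Bergmann glia-like cells, with exact 95% counting intervals; circles are P12 and squares P24-30, and the P24-30 neuron-like value leaves out the glial, immune, choroid plexus and low-depth cells of its tags. Kcnj10 and Kcnj16 are high in both glial classes, Cacng4, Kcnd2 and Scn3a are highest in the oligodendrocyte lineage-like class, and Cacna2d1 is highest in neuron-like cells.

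Counted over the list, 33 of the 58 members were 2-fold or more higher in oligodendrocyte lineage-like than in cycling P12 cells and 5 were 2-fold or more lower. Of all 12234 genes with the same minimum, 22.4% were higher and 13.0% lower by that rule. Of the 33, 5 rested on 1 to 3 UMIs in the smaller class, where 1 UMI is 4.65 CPM. The median log2 ratio of the members was 1.58, against 0.01 for all genes (1.68 and 0.27 with genes at 0 set to the limit that 3 UMIs give), and 9 members had no UMI in the class. The summed members took 3724 CPM (3471 to 3991) against 983 CPM (959.7 to 1007) in cycling cells. Malat1, a nuclear RNA, was also higher, at 49837 against 14198 CPM, and with totals that leave out Malat1, mitochondrial and ribosomal protein UMIs 34 members were higher. Such totals rescale all genes of a class alike, and the part of other nuclear RNA in these values was not tested.

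Cacng4, a TARP (chromosome 11, 107732357 to 107794557, minus strand), was the member with the most UMIs in these cells. It had 264 UMIs (1227 CPM) in oligodendrocyte lineage-like cells, 143 UMIs (21.4 CPM) in cycling cells and 44 UMIs (46.7 CPM) in neuron-like cells. The ratio over cycling cells was 57.4 (46.7 to 70.9). After thinning, 39.3% of oligodendrocyte lineage-like cells (30.6 to 48.6), 1.07% of cycling cells and 0 of 77 microglia-like cells held a Cacng4 UMI. Unthinned, the shares were 77.0%, 4.30% and 2.60%. Other members of the Cacng family did not share this level: Cacng7 was 2.96 times higher (1.79 to 4.63) and Cacng2 was at 0.118 of the cycling level (0.0384 to 0.277).

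Pore-forming subunits of fast potassium and sodium currents were also high in the oligodendrocyte lineage. Kcnd2, which carries A-type potassium current, had 39 UMIs against 14 and a ratio of 86.7 (46.0 to 173). Scn3a, a sodium channel prominent in immature neurons, had 27 UMIs against 9 and a ratio of 93.3 (42.6 to 226). Scn1a (31.1, 10.9 to 88.5) and Kcnd3 (22.5, 10.1 to 48.5) were higher on fewer than 20 UMIs each. Kcnip3, a calcium-binding protein that attaches to Kcnd channels, was 10.5 times higher (79 UMIs against 234, 8.03 to 13.6). Scn8a was level, at a ratio of 0.996 (0.451 to 1.92).

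The P24-30 library held 38 oligodendrocyte lineage-like cells, found as a sub-cluster. There 29 members were 2-fold or more higher than in the cycling tags and 3 lower, against 27.4% and 9.92% of all genes, with 21 members at 0 UMIs and 13 of the 29 resting on 1 to 3 UMIs. Cacng4 was 90.1 times higher (265 UMIs against 249, 75.5 to 108) and Kcnd2 317 times higher (15 UMIs against 4, 101 to 1314). Scn3a was 56.4 times (29.3 to 106) and Kcnj16 69.2 times higher (25.4 to 184). Cacng2 was at 0.139 (0.0287 to 0.408) and Cacna2d1 at 0.260 (0.0536 to 0.763) of the cycling level, each on 3 UMIs. The direction for these 6 genes was the one seen at P12.

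In the unfiltered astrocyte or Bergmann glia-like cluster the count was smaller. At P12, 15 members were 2-fold or more higher than in cycling cells and 7 lower, against 9.25% and 29.0% of all genes. Of the 15, 8 rested on 1 to 3 UMIs, and 17 members had none. The median log2 ratio of members was -0.58 with genes at 0 ranked lowest and 1.19 with them at their limit, so its sign is set by those genes. Over all genes these medians were -0.94 and -0.41. At P24-30, 22 members were higher and 3 lower, against 16.1% and 20.1% of all genes, and 9 of the 22 rested on 1 to 3 UMIs. Beside Kcnj10 and Kcnj16, Kcne1l, an accessory subunit of potassium channels, was 3.49 times higher at P12 (16 UMIs against 182, 1.96 to 5.83) and 5.33 times higher at P24-30 (18 against 98, 3.03 to 8.87). Cacng4 was 6.44 times (4.19 to 9.57) and 5.36 times (3.83 to 7.37) higher, less than in the oligodendrocyte lineage-like cells by these intervals. Cacng2 was at 0.400 (0.228 to 0.651) of the cycling level at P12 and 0.953 (0.724 to 1.23) at P24-30.

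Neuron-like cells of P12 took 2083 CPM (1992 to 2178) of summed member UMIs, against 983 CPM in cycling cells. Of the 58 members, 27 (46.6%) were 2-fold or more higher than in cycling cells and 11 (19.0%) lower, against 14.7% and 14.6% of all genes. The median log2 ratio was 0.95 for the members and 0.01 for all genes (1.15 and 0.06 with genes at 0 at their limit). By family, the higher members were 7 of 15 Kv pore subunits, 3 of 8 inward rectifiers, all 3 tandem-pore channels (Kcnk), 3 of 4 sodium pore subunits, 4 of 5 calcium pore subunits and all 3 calcium beta subunits. They were also 1 of 2 sodium beta subunits, 1 of 2 alpha2delta subunits, 1 of 6 auxiliary subunits of potassium channels and 1 of 5 members of the Cacng family. The lower members were 3 Kv pore subunits, 2 inward rectifiers, 1 auxiliary subunit, 2 of the Cacng family and 3 of the 4 calcium- or sodium-activated potassium channels, on 1 or 2 UMIs each in neuron-like cells. No activated channel was higher, and Kcnn4, the activated channel not counted lower, had 0 UMIs in neuron-like and 31 in cycling cells. Malat1 stood at 22881 CPM in neuron-like and 14198 CPM in cycling cells, and with totals that leave out the same UMIs as above the counts were again 27 and 11. An unnamed P12 cluster of low depth (91 cells, median of 854 UMIs) took 1896.5 CPM (1612 to 2216) of summed member UMIs. In it 23 members were 2-fold or more higher than in cycling cells and 2 lower, against 19.4% and 12.9% of all genes. Of the 23, 15 rested on 1 to 3 UMIs. Its Kv and sodium pore subunits summed to 540 and 288 CPM, against 395 and 129 CPM in neuron-like cells. Its Malat1 level was 60568 CPM.

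**Figure D2:**
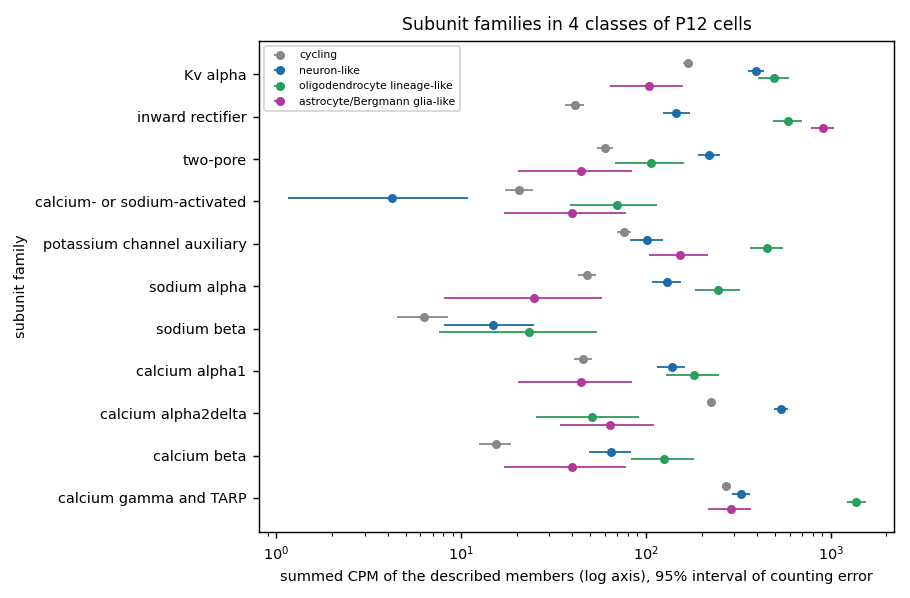
Summed CPM of the described members of each subunit family (log axis) in 4 classes of P12 cells, with exact 95% counting intervals; the family of sodium beta subunits has no UMI in the astrocyte or Bergmann glia-like class and no point there. Calcium alpha2delta subunits reach 539 CPM in neuron-like cells, and inward rectifiers reach 905 CPM in the astrocyte or Bergmann glia-like class.

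Among sodium channels, Scn3a (chromosome 2, 65457118 to 65567627, minus strand) stood at 23.3 CPM (22 UMIs) in neuron-like and 1.34 CPM (9 UMIs) in cycling cells, a ratio of 17.3 (7.67 to 42.8). Scn8a, the sodium channel of the axon initial segment, was 2.27 times higher (90 UMIs against 281, 1.77 to 2.89). The accessory subunit Scn3b was 2.84 times higher (14 against 35, 1.41 to 5.41). These 3 intervals lie above 1. Scn3a in microglia-like cells had no UMI in either library.

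Among leak channels, Kcnk1 (chromosome 8, 125995170 to 126030685, plus strand), a background leak channel, stood at 175 CPM (165 UMIs, 149 to 204) in neuron-like and 53.8 CPM (360 UMIs, 48.4 to 59.7) in cycling cells, a ratio of 3.25 (2.69 to 3.92). Kcnk2, a mechanically gated leak channel, was 9.997 times higher (31 UMIs against 22, 5.60 to 18.1). Kcnj3 and Kcnj6, subunits of channels opened by G proteins, were 5.37 times (84 against 111, 3.99 to 7.19) and 5.80 times higher (36 against 44, 3.63 to 9.23). Their partner Kcnj9 had 4 UMIs against 11, a ratio of 2.58 whose interval includes 1 (0.599 to 8.71). Of the repolarising Kv channels, Kcnb2 was 4.95 times (118 against 169, 3.88 to 6.30) and Kcnc1 2.88 times higher (84 against 207, 2.21 to 3.73). Kcnh7, of the ERG family, was level at 0.966 (0.596 to 1.498).

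Among calcium channels, Cacna1b, the N-type pore of presynaptic terminals, was 4.22 times higher (44 UMIs against 74, 2.84 to 6.21), and Cacna1c, an L-type pore, 6.03 times (17 against 20, 2.97 to 12.1). The L-type pore Cacna1d stayed under 2-fold at 1.60 (0.901 to 2.69). The beta subunits Cacnb1, Cacnb3 and Cacnb4, which bring the pore to the membrane, were 9.22 times (3.74 to 23.5), 5.44 times (3.02 to 9.68) and 2.82 times higher (1.70 to 4.54). The alpha2delta subunit Cacna2d3 had 2 UMIs against 25 (0.568, 0.0652 to 2.28). Cacna2d1, an alpha2delta subunit on mouse chromosome 5 (15934691 to 16374511, plus strand), had 506 UMIs (536.5 CPM, 491 to 585) against 1486 UMIs (222 CPM, 211 to 234), a ratio of 2.42 (2.18 to 2.67). After thinning, 22.7% of neuron-like cells (19.4 to 26.3), 11.8% of cycling cells (10.7 to 13.1) and 1.30% of microglia-like cells held a Cacna2d1 UMI. Unthinned, the shares were 53.2%, 37.9% and 2.60%, at median depths of 1440, 2089 and 2091 UMIs.

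Cacng2 (chromosome 15, 77991748 to 78120028, minus strand), the TARP known as stargazin, had the most UMIs of all members, 6575 over both files. In P12 it stood at 231 CPM (218 UMIs, 201 to 264) in neuron-like and 196 CPM (1314 UMIs, 186 to 207) in cycling cells, a ratio of 1.18 (1.02 to 1.36). After thinning, 9.76% of neuron-like (7.50 to 12.4) and 9.45% of cycling cells (8.39 to 10.6) held a Cacng2 UMI, and 0 of 77 microglia-like cells did. Unthinned, these shares were 28.6%, 32.8% and 1.30%. Cacng2 differed by less than 2-fold between cycling and neuron-like cells and was low in oligodendrocyte lineage-like cells (5 UMIs, 23.2 CPM).

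Of the 11 members lower in neuron-like P12 cells, 10 had 1 to 3 UMIs there. Another 4 members with a ratio had no UMI there and, set to the limit of 3 UMIs, were not counted lower. Among them were Kcng2 (0 UMIs against 41) and Kcnn4 (0 against 31). Kcnh5, of the EAG family, had 2 UMIs against 96 (0.148, 0.0176 to 0.549), and Cacng5, a TARP, 1 against 89 (0.0797, 0.002 to 0.456). Cacng3, another TARP, had 1 against 54 (0.131, 0.00327 to 0.764). Kcnn2, a calcium-activated potassium channel, had 1 against 48 (0.148, 0.00367 to 0.864). Kcnq3, a subunit of the slow M-current, was lower on 8 UMIs against 125 (0.454, 0.192 to 0.923). Kcnab2 had 1 against 43 (0.165, 0.00408 to 0.970). For Kcnj8, Kcnj10, Kcnma1, Kcnq5 and Kcnt2 the interval includes 1. Kcnmb4, an accessory subunit of the large-conductance channel, was 2.93 times higher (1.78 to 4.69), and Kcnmb4os2, an RNA antisense to it, 1.61 times (0.477 to 4.36). Whether counting used strand is not given, so reads of this pair may not be told apart.

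**Figure D3:**
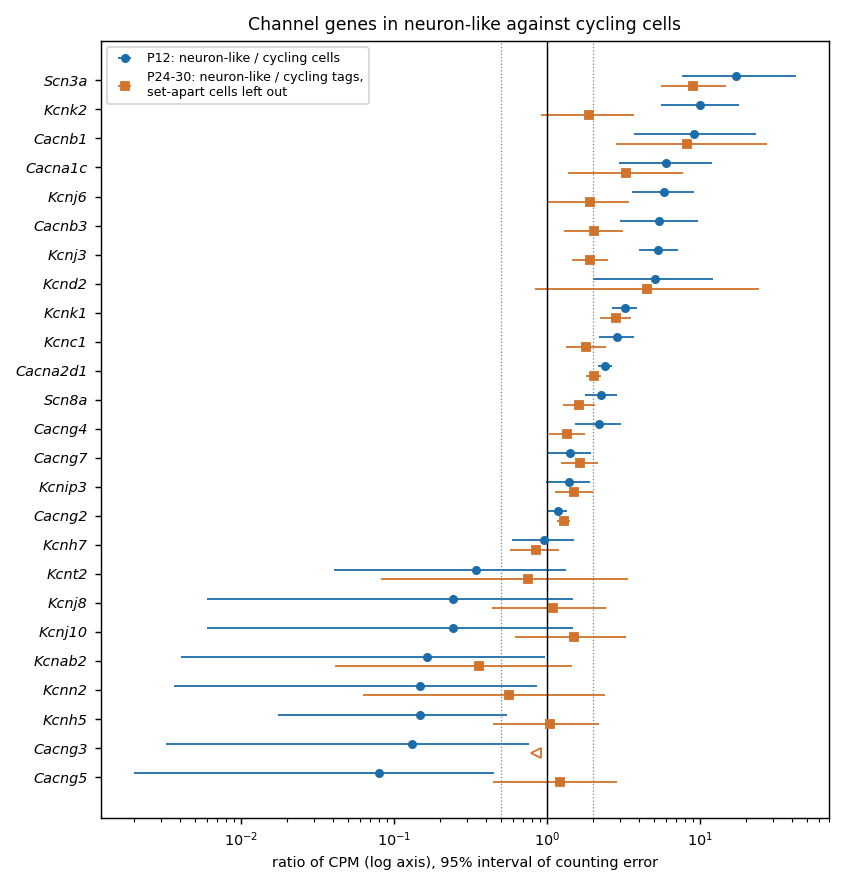
Ratio of CPM in neuron-like over cycling cells (log axis) for 25 members, with exact 95% counting intervals; circles are P12 and squares the P24-30 tags with the glial, immune, choroid plexus and low-depth cells left out, dotted lines mark 2-fold, and the open triangle is an upper limit for a gene at 0. Scn3a, Kcnk1 and Cacna2d1 lie right of the 2-fold line in both libraries, and Cacng2 lies near 1 in both.

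In the P24-30 tags, 28 members were 2-fold or more higher in G11 to G13 than in the cycling tags and 4 lower, against 21.1% and 7.74% of all genes. The median log2 ratio was 0.94 for members and 0.28 for all genes. Part of this came from few cells of other types or of low depth carrying these tags. Among the 837 cells were 22 oligodendrocyte lineage-like, 9 choroid plexus-like and 3 microglia-like cells and 49 cells of a cluster of low depth. The 5 choroid plexus markers summed to 11640 CPM in these tags and 170 CPM without those cells. Leaving them out, a choice made after the data had been seen, gave 19 members higher and 3 lower, against 15.5% and 9.49% of all genes, with medians of 0.71 and 0.18.

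The members that depended on those cells were distinct. Kcne2 and Kcnj13 are accessory and pore subunits of the choroid plexus epithelium. They had 67 and 37 UMIs in G11 to G13 and none in the cycling tags. With the cycling tags set to 3 UMIs, which is not an exact bound, the ratios were 88.3 and 48.8. Of the 67 and 37 UMIs, 65 and 36 lay in the 9 choroid plexus-like cells. Of the 238 Cacng4 UMIs in these tags, 158 lay in the 22 oligodendrocyte lineage-like cells, and without set-apart cells its ratio fell from 3.78 (3.15 to 4.53) to 1.36 (1.04 to 1.77). Kcnab2, a beta subunit of Kv channels, had 27 of 29 UMIs in low-depth cells, 25 of them in 1 cell of G11 with 691 UMIs. Kcnt2, a sodium-activated channel, had 19 of 21 there, all 19 in 1 cell of the same depth.

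**Figure D4:**
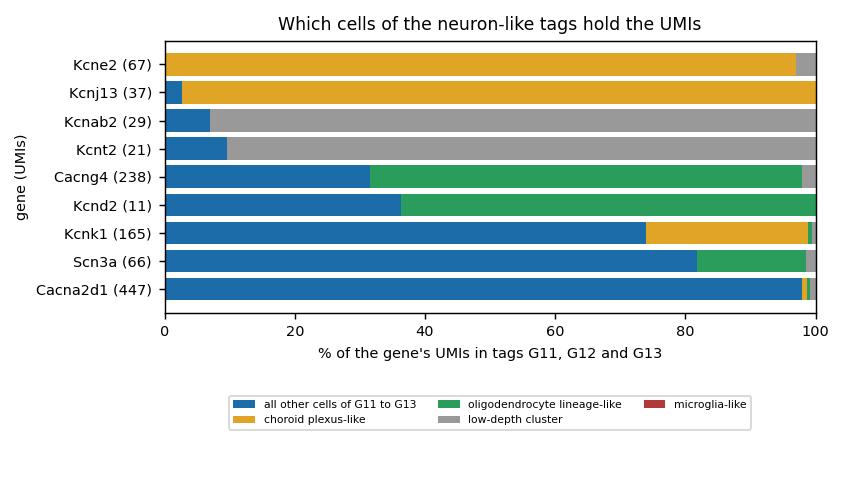
Share of each gene's UMIs in tags G11 to G13 (in %, bars add to 100) that lay in choroid plexus-like, oligodendrocyte lineage-like, microglia-like, low-depth and all other cells, with the gene's UMIs in brackets. Kcne2 and Kcnj13 are almost wholly in choroid plexus-like cells, and Cacna2d1 almost wholly in the other cells.

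In the remaining 754 cells, the higher members were 5 of 15 Kv pore subunits, 2 of 8 inward rectifiers, 1 of 3 tandem-pore channels, 3 of 4 sodium pore subunits, 1 of 2 sodium beta subunits, 4 of 5 calcium pore subunits, 1 of 2 alpha2delta and 2 of 3 calcium beta subunits. No auxiliary subunit of potassium channels, activated channel or member of the Cacng family was among them. Scn3a was 9.06 times higher than in the cycling tags (54 UMIs against 27, 5.61 to 14.96). Kcnk1 was 2.82 times higher (122 against 196, 2.23 to 3.55). Cacna1b was 2.48 times (1.77 to 3.43), Cacna1d, under 2-fold at P12, 2.92 times (1.91 to 4.42) and Cacnb1 8.31 times higher (11 against 6, 2.82 to 27.4). Cacna2d1 was 2.04 times higher (1.81 to 2.28) and Cacng2 1.29 times (1.17 to 1.42). Kcnj3, at 1.92 (1.45 to 2.52), Kcnc1, at 1.81 (1.33 to 2.44), and Scn8a, at 1.63 (1.28 to 2.06), were under 2-fold here and above it at P12, a difference that was not tested. Cacng5 and Kcnh5, low at P12, stood at 1.22 (0.447 to 2.89) and 1.05 (0.445 to 2.19). Without the set-apart cells, 16 members were 2-fold or more higher in both libraries, 59.3% of the P12 list and 84.2% of the P24-30 list. Over all genes these shares were 59.4% and 56.3%. Over whole tags 19 members were higher in both, 70.4% and 67.9% of the lists, against 64.2% and 44.7% over all genes. The 1 member lower in both was Cacng3 over whole tags and Kcnab2 without the set-apart cells. The classes of both libraries were named from the same marker lists.

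Members of several families were higher in G11 to G13 than in any cycling tag, as the heat map of levels shows. These levels are of whole tags, set-apart cells included. Of the 66 Scn3a UMIs in G11 to G13, 11 lay in oligodendrocyte lineage-like cells. Scn3a was between 1.56 and 7.9995 CPM in the 4 cycling tags and at 37.2, 51.7 and 62.6 CPM in G13, G12 and G11. Tags G14 (26.8 CPM) and G15 (22.6 CPM), whose neuron marker scores of 0.641 and 0.255 were under the limit of 0.75 for the name, lay between. Cacna2d1 ran from 144 to 181 CPM in the cycling tags, with 274 CPM in G15, 247 CPM in G14 and 277 to 391 CPM in G11 to G13. Cacng2 ran from 274 to 336 CPM in the cycling tags and 336 to 390 CPM in G11 to G13, so these ranges met. Its highest levels were in G5 (431 CPM) and G7 (432 CPM), tags left unnamed. All members summed to 2841 CPM in G10, above the 1763 to 2351 CPM of G11 to G13. G10 had 77 cells with a median of 774 UMIs, 54 of them set apart. The 23 others, too few for a name, scored 1.303 on the neuron markers. Sodium pore subunits summed to 355 CPM in G10 and to 113 CPM in G4, unnamed with a neuron score of 0.289.

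**Figure D5:**
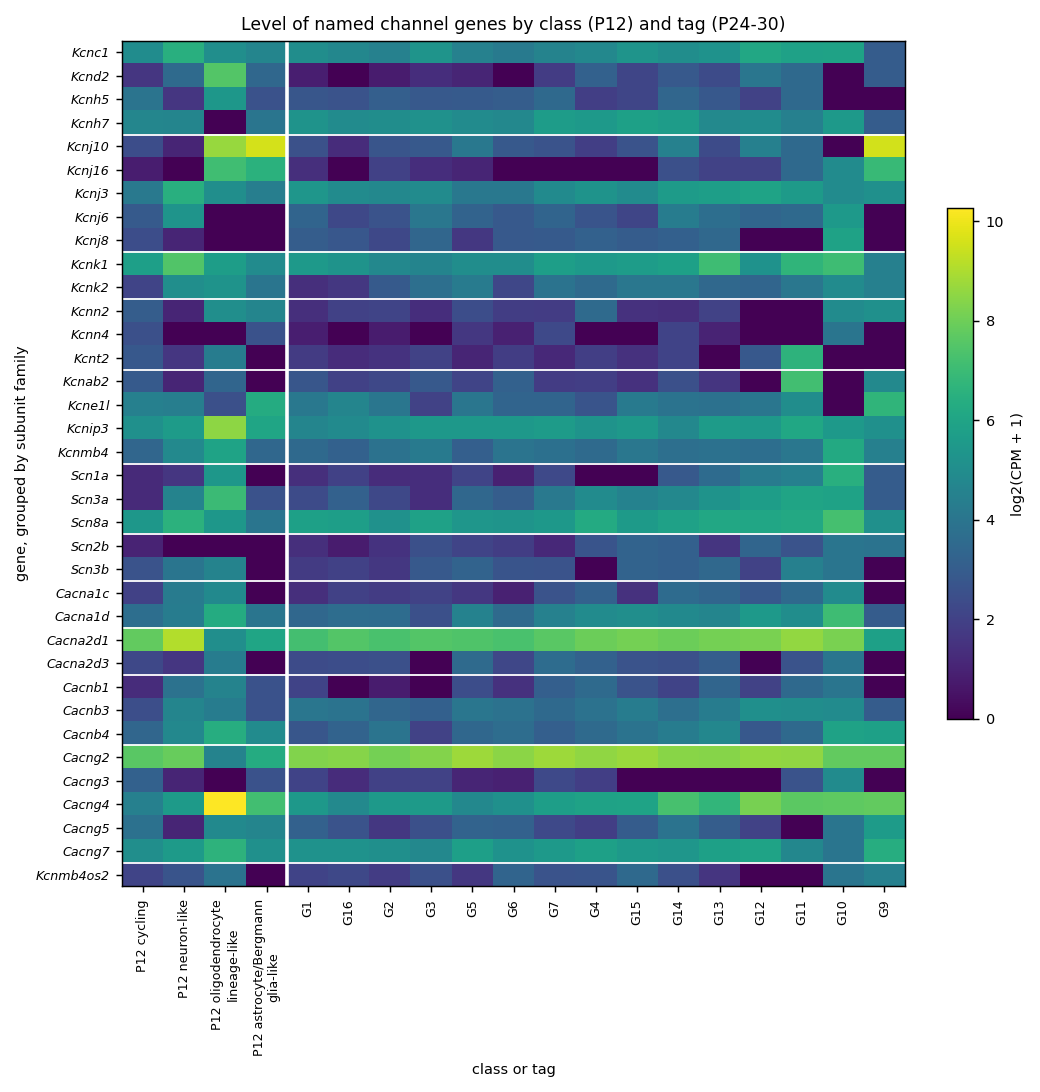
Heat map of log2 of CPM plus 1 for 36 named members (lines group subunit families) in 4 P12 classes and 15 P24-30 tags, ordered from cycling to neuron-like tags, then G10 and G9. Tags are whole, with set-apart cells included, and the P12 astrocyte or Bergmann glia-like class and G9 are without the cell filter. The microglia-like tag G8 is not drawn; Cacna2d1 and Cacng2 are high in nearly every tag, and Cacng4 peaks in oligodendrocyte lineage-like cells.

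Levels at both ages are set side by side only, since age cannot be told apart from the library or from how each file was counted. Between neuron-like cells, with whole tags at P24-30, 15 members were 2-fold or more higher at P24-30 and 9 lower, against 17.9% and 9.9% of all genes, and the median log2 ratio was -0.14 for members and -0.08 for all genes. Without the set-apart cells the counts were 10 and 9, against 13.2% and 11.9% of all genes. Kcne2, Kcnj13, Cacng4, Kcnab2 and Kcnt2 were higher with these cells only. Kcnb2 was lower at P24-30 in the whole neuron-like tags (36 UMIs against 118, 0.190, 0.127 to 0.278) and in cycling cells (62 against 169, 0.410, 0.301 to 0.551). Kcnj6 (0.294, 0.155 to 0.537) and Kcnk2 (0.321, 0.164 to 0.606) were lower in neuron-like cells. Cacng2 was higher in both, 1.53 times (1.30 to 1.80) and 1.55 times (1.44 to 1.66). Between cycling cells, 4 members were higher and 10 lower, against 9.78% and 9.89% of all genes. Kcnma1, the large-conductance potassium channel, was higher in cycling cells at P24-30 (61 UMIs against 18, 3.78, 2.21 to 6.804). Kcnn4, a calcium-activated channel of intermediate conductance, was lower (3 against 31, 0.108, 0.0211 to 0.346).

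Within the P12 cycling cells, 2 members (3.45%) were 2-fold or more higher in G2/M than in S clusters and 8 (13.8%) lower, against 4.03% and 6.84% of all genes. Kcnk1 was 1.88 times higher in G2/M (225 UMIs against 135, 1.51 to 2.35), and Kcnmb4 stood at 0.384 of the S level (16 against 47, 0.203 to 0.690). Cacng2 was level at 1.10 (0.990 to 1.23).

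Other genes of excitability, a list of 50 of which 44 passed the same minimum, were counted by the same rule. In neuron-like P12 cells 20 were higher and 6 lower, and in the whole neuron-like tags 23 and 1. In oligodendrocyte lineage-like cells 24 were higher and 4 lower, and in the unfiltered astrocyte or Bergmann glia-like cluster 12 and 8. Ank2 and Ank3, ankyrins that anchor channels, were 4.84 times (4.20 to 5.58) and 2.66 times higher (2.43 to 2.90) in neuron-like P12 cells, and Nfasc, an adhesion protein of the initial segment, 10.1 times (5.61 to 18.6). Rest, a repressor of neuronal genes, had no UMI in neuron-like cells and 81 in cycling cells. With the neuron-like cells set to 3 UMIs the ratio was 0.263, and its exact upper limit was 0.331. In the whole P24-30 tags, set-apart cells included, Rest had 13 UMIs in neuron-like and 31 in cycling tags. The ratio was 1.66, with an interval that includes 1 (0.797 to 3.26). In P12 oligodendrocyte lineage-like cells Rest was 4.61 times higher than in cycling cells (12 UMIs against 81, 2.29 to 8.50).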

How the data were processed

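Both libraries are Drop-seq of medulloblastoma cells, 1 library per age, per the labels. The P12 file as deposited holds counts per gene and barcode, taken here as UMIs, since no source says whether they were collapsed by molecular barcode. The P24-30 file the authors deposited holds natural log expression: each cell was scaled to 10000 and 1 was added. Undoing this gave whole UMIs (tolerance 0.001) for 100% of the 6195642 nonzero values. The submitters' processing notes name CASAVA and mm10; no aligner, counter or annotation was given in the sources used. Of the 16550 genes in both files, 16055 matched by name and 495 through RefSeq synonyms, among them 2 members.

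Cells with under 500 UMIs (9 at P12, 146 at P24-30) or over 20% mitochondrial UMIs (268 and 49) were left out. Each library was clustered alone with scanpy 1.11.5 (2000 variable genes without members, 30 components, 15 neighbours, Leiden resolution 1, seed 1). Names came from 18 marker lists by mean log2 fold with a pseudocount of 20 CPM and needed 3 or more raised markers, at a log2 of 1 or above. The mean had to reach 2.5 for glial or immune, 0.75 for neuron-like and 0.5 for cycling names. These limits were chosen with the clusters in view. No doublet caller was run, and an alternative leaves out the cells above the 95th percentile of UMIs. Tags were named on cells outside glial, immune, choroid plexus and low-depth clusters (unnamed, median depth under 0.5 of the library's). The 38 P24-30 oligodendrocyte lineage-like cells came from sub-clustering at resolution 0.5.

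UMIs were summed per class. Ratios carry exact Clopper-Pearson 95% intervals on the split of the sum, and CPM exact Poisson intervals (scipy 1.17.1). With 1 library per age there is no test, and a ratio of at least 2 or at most 0.5 was counted. A gene at 0 was set to a limit of 3 UMIs, so its ratio is not an exact bound. The calculation was tested on simulated data. Named members were the 10 with the most UMIs, the 8 highest and 8 lowest neuron-like ratios, the 5 highest in each glial class, the highest and lowest of each family, and those beside the minimum; others named were chosen after their values were seen. Some genes in the counts are not reported here by name. Members and lists were chosen with earlier results of these data known. Alternatives changed the filter, clustering, resolution, doublets, minimum, scaling, fold and thinning.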

Additional observations from a re-analysis of the deposited data

Results flagged for a closer look

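Kcnab2 and Kcnt2 went opposite ways in the libraries, a difference that was not tested. In P12, the neuron-like over cycling ratio was 0.165 for Kcnab2 (1 UMI against 43, 0.00408 to 0.970) and 0.346 for Kcnt2 (2 against 41, 0.0406 to 1.33). In the P24-30 tags the ratios were 4.59 (29 against 25, 2.59 to 8.17) and 6.92 (21 against 12, 3.25 to 15.4). Without the set-apart cells of these tags they were 0.363 (0.0416 to 1.45) and 0.755 (0.0821 to 3.39), so the P24-30 direction was not there without these cells.

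Of the symbols the rule would take, 27 were in the P24-30 file only and 10 in the P12 file only, and they enter no comparison. Kcna7, a Kv pore subunit, had 133 UMIs in the P24-30 file. Kcnq1ot1, a long non-coding RNA, had 5062 UMIs in the P12 file. Whether such genes were left out of the other file by annotation or by a filter was not tested.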

How the results depend on the processing

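No paired analysis was possible because there is 1 library per age. Counting only ratios past 3-fold gave 16 members higher and 7 lower in neuron-like P12 cells, and 16 higher and 2 lower in the neuron-like tags. For all genes the shares past 3-fold were not computed, so these counts have no background beside them. At Leiden resolution 2 the members lower in neuron-like P12 cells were 7, and with a minimum of 100 UMIs those lower in the neuron-like tags were 1. For the planned glial P12 class, which with the filter is the oligodendrocyte lineage-like cluster with 33 members higher, the count was 15 without a filter on cells, where a separate astrocyte or Bergmann glia-like cluster is used. Clustering both libraries together gave no value for that count. The share of neuron-like P12 cells with a Cacng2 UMI was 9.76% at 500 UMIs, 28.6% without thinning and 19.0% at 1000 UMIs. The Kcnj10 ratio of neuron-like over cycling P12 cells, 0.245 on 1 UMI, turned to 1.36 without the filter, 2.56 with members among the clustering genes and 1.33 without the cells of highest depth; the cause was not tested. Over 47 ratios of named members, 312 values were recomputed, of which 273 stayed within the reported interval, 36 left it and the 3 for Kcnj10 reversed. For members on 1 to 3 UMIs the interval is so wide that staying within it says little. The recomputed values also rest on the same counts. The alternatives that change the cells of a tag, or use P24-30 clusters in place of tags, were chosen after seeing the data. Depth limits genes with 1 to 3 UMIs in a class, whose intervals are wide, and 1 library per age leaves the spread between animals unmeasured.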
